A study of Mus musculus with 20 samples.

Results

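The 12 arrays described here measured kidney RNA from mice fed a low phosphate or a control diet for 5 days, 6 arrays on each diet, and were chosen from the 20 arrays of the study by the duration that their labels give. The other 8 arrays came from mice fed for 3 days. All mice were C57BL/6J, and each array was hybridised with kidney RNA pooled from 3 mice. Normal mice and Hyp mice, whose mutation lies in Phex and which model X-linked hypophosphatemia, each gave 3 arrays per diet. Arrays that follow each other in title number shared genotype and sex and were taken as a pair, control first. The normal pairs were arrays 01 and 02, 05 and 06, and 19 and 20, and the Hyp pairs were arrays 03 and 04, 07 and 08, and 09 and 10. Arrays 05 to 08 came from females and the other 8 from males. The labels give neither the age of the mice nor the phosphate content of the diets. P-values measure the spread between pools and not between single mice. Because RNA came from whole kidney, a change in the share of a cell type and a change in its RNA per cell cannot be told apart.

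The kidney sets blood phosphate by returning filtered phosphate through sodium-phosphate cotransporters in the proximal tubule, and parathyroid hormone and FGF23 withdraw these transporters from the membrane. FGF23 acts through FGF receptors with klotho as co-receptor, and it also lowers Cyp27b1, the enzyme that makes active vitamin D, and raises Cyp24a1, the enzyme that degrades it. When dietary phosphate is short, a normal kidney retains phosphate and makes more active vitamin D. Hyp mice have excess FGF23, waste phosphate in urine and regulate vitamin D synthesis abnormally.

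Values are deposited intensities on a linear scale, where every array has the same trimmed mean, and the number of arrays limits the precision. Differences are low phosphate minus control on a log2 scale after adding an offset of 38, which understates the change of dim genes, and are followed by their standard error (SE) in limma. A gene is said to rise or fall where its adjusted p over the 8695 probe sets tested was under 0.05. In lists of 3 values the order is that of the array numbers, so the second value in each genotype is the female pool.

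Several arrays stood apart from the rest. Arrays 05 to 08 had median Spearman correlations of 0.863 to 0.917 with the 12 arrays, against 0.920 to 0.940 for the other 8, and the ratio of 3′ to 5′ actin probe intensities, which rises as RNA degrades, was 1.74 to 2.61 in them against 1.22 to 1.98. Array 10, a Hyp low phosphate pool, had an intensity of 13097 for Alb, the liver's albumin gene, where the other 11 arrays had 101 to 1226. It also had 1706 for Apoa1 and 943 for Ahsg, both genes of proteins that liver secretes, and array 08, of the same group, was next with 1226, 549 and 95.1. The 11 liver and pancreas markers on the array summed to 21147 in array 10, to 3840 to 4996 in the other 5 low phosphate arrays and to 3368 to 4836 in the 6 control arrays. Umod, Slc12a3, Aqp2 and Lrp2, which mark the thick ascending limb, distal tubule, collecting duct and proximal tubule, were bright on all 12 arrays (lowest intensities 7434, 4489, 756 and 7429). Aqp2 was uneven, at 756, 918 and 838 in arrays 06, 07 and 10 and up to 2738 in array 04. The called results, and the differences in Hyp mice of the genes described most closely, are given below with and without arrays 07 to 10. The part of array quality and of the liver transcripts in the other differences was not tested.

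**Figure D1:**
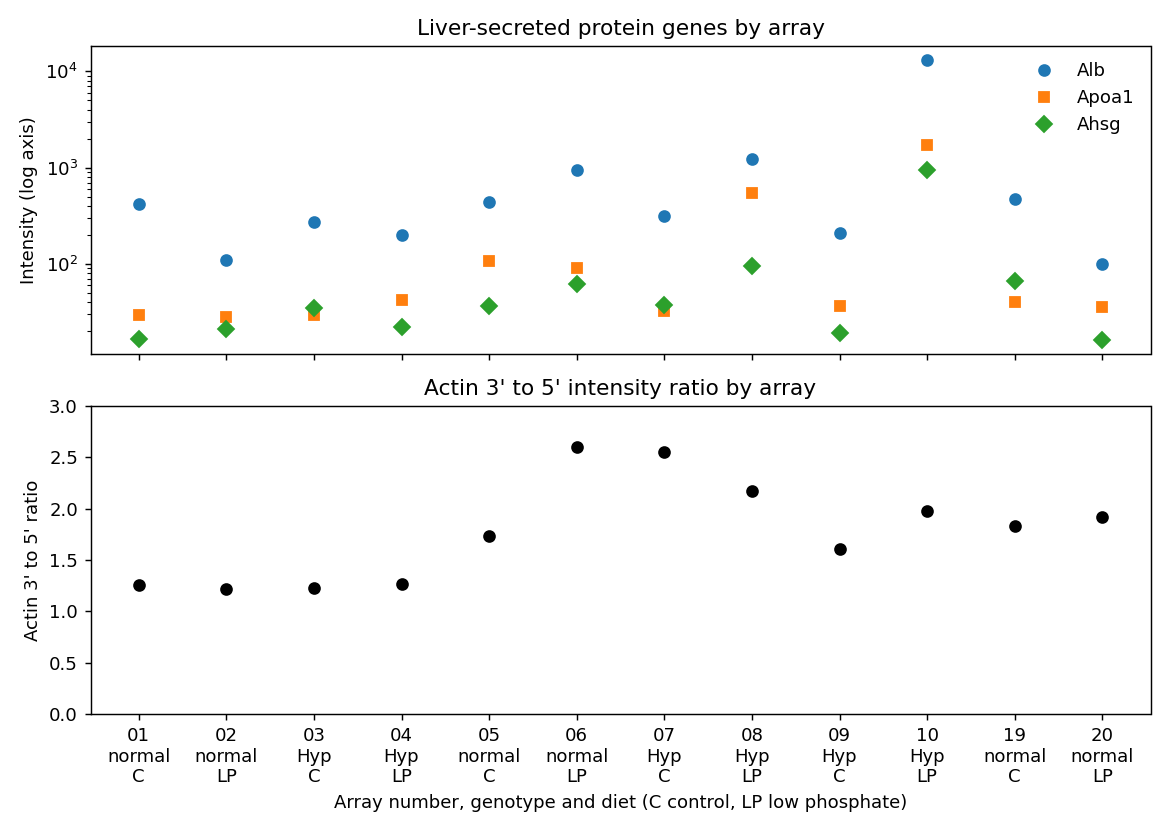
The upper panel plots the intensities of 3 liver-secreted protein genes (log axis) and the lower panel the actin 3′ to 5′ intensity ratio, by array number with genotype and diet under each point. Array 10 reaches 13097 for Alb, and the actin ratios of arrays 06, 07 and 08 are the highest of the 12.

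The first comparison asked what the diet did over both genotypes. Ttr, which encodes transthyretin, a carrier of thyroid hormone and of retinol with its binding protein, fell over both genotypes together. In normal mice its intensities were 418, 415 and 479 on control diet and 186, 98.6 and 196 on low phosphate, and in Hyp mice they were 3781, 3959 and 4284 and 1036, 916 and 1535. All 6 pairs were lower on low phosphate. The groups overlap over all 12 arrays only because Hyp levels are far above normal levels on either diet, and within each genotype they did not overlap. The share of all probe sets without overlap within a genotype was not counted, for this gene or for those below. The mean difference was -1.54 ± 0.15 SE (limma, adjusted p = 0.038), with -1.30 ± 0.19 SE in normal mice (adjusted p = 0.2) and -1.78 ± 0.19 SE in Hyp mice (adjusted p = 0.083). Without arrays 07 to 10, which leaves 1 Hyp pair, the Hyp difference of Ttr was -1.83. Ttr was the only one of 8695 probe sets past the threshold in this comparison, 0 higher and 1 lower, a share of 0.0115%. The call ended when any 1 pair was left out (adjusted p = 0.058 to 0.23, the highest without arrays 09 and 10), without arrays 05 to 08, which is also the fit to the male pairs alone (-1.36, adjusted p = 0.35), with an offset of 1 (adjusted p = 0.067), with quantile normalization (adjusted p = 0.072), with no filter on dim probe sets (adjusted p = 0.071) and without arrays 07 to 10 (-1.43, adjusted p = 0.48), while the difference stayed between -1.66 and -1.36 under every alternative tried.

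Below the threshold, 735 probe sets (8.45%) had an unadjusted p under 0.05, 383 higher and 352 lower on low phosphate, which is 4.4% and 4.05% of those tested. In 238 probe sets (2.74%) all 6 pairs were higher, in 266 (3.06%) all 6 were lower. In 6 probe sets (0.069%) every low phosphate array was above every control array, and in 7 (0.0805%) every one was below. Mdk, Bmp6, Tcf25 and the ribosomal protein gene Rps3 are among the 6, with 2 probe sets that name no gene, and Pck1, Ces1d, Vcp, Ndn, Sec22b, Tpd52 and Dynll1 are the 7. These 13 were picked by this separation, so no test of it is given.

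Mdk, the heparin-binding growth factor midkine, had intensities of 494, 673 and 599 in normal control pools and 1615, 1042 and 1411 in their low phosphate partners. In Hyp mice it had 824, 663 and 944 and 1851, 1095 and 1758. Every low phosphate array exceeded every control array, and the mean difference was 1.02 ± 0.14 SE with an adjusted p of 0.16. Bmp6, a bone morphogenetic protein that regulates iron through hepcidin, was 488, 474 and 586 against 903, 801 and 832 in normal mice and 526.3, 430.1 and 398 against 721, 667 and 692 in Hyp mice, a difference of 0.63 ± 0.09 SE (adjusted p = 0.19). Its second probe set gave 0.49, and for Cp, the copper-containing ferroxidase ceruloplasmin, the difference was 0.71 ± 0.14 SE (adjusted p = 0.42), higher in 6 of 6 pairs. Igfbp1, an insulin-like growth factor binding protein that insulin represses, differed by 0.61 ± 0.11 SE (adjusted p = 0.35) and was higher in 6 of 6 pairs. Zic2, a zinc finger transcription factor, was dim, with at most 292 on any array, and differed by 0.82 ± 0.16 SE (adjusted p = 0.42). None of these 5 genes passed the threshold.

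On the lower side, Pck1, the cytosolic phosphoenolpyruvate carboxykinase that commits carbon to gluconeogenesis, had 4995, 4786 and 7755 on control diet and 3010.3, 3501 and 3797 on low phosphate in normal mice. In Hyp mice it had 4801, 5381 and 4694 and 1938, 2639 and 2659, so that the highest low phosphate value lay under the lowest control value. Its mean difference was -0.89 ± 0.12 SE (adjusted p = 0.16). Col5a2, a chain of fibrillar collagen, differed by -0.79 ± 0.10 SE (adjusted p = 0.16), Nudt19, a peroxisomal hydrolase of coenzyme A, by -0.54 ± 0.09 SE and the carboxylesterase gene Ces1g by -1.08 ± 0.19 SE (adjusted p = 0.35 for both). Each was lower in 6 of 6 pairs and none passed. With all 20 arrays in the fit, or with trended and robust variances, 7 probe sets passed: those of Ttr, Mdk, Bmp6, Pck1, Col5a2 and Nudt19 and 1 that is not named here. Ces1g was not among these 7. It was dim, at 22.7, 17.9 and 64.4 in normal low phosphate pools, and near-identical carboxylesterase genes may share its probes.

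**Figure D2:**
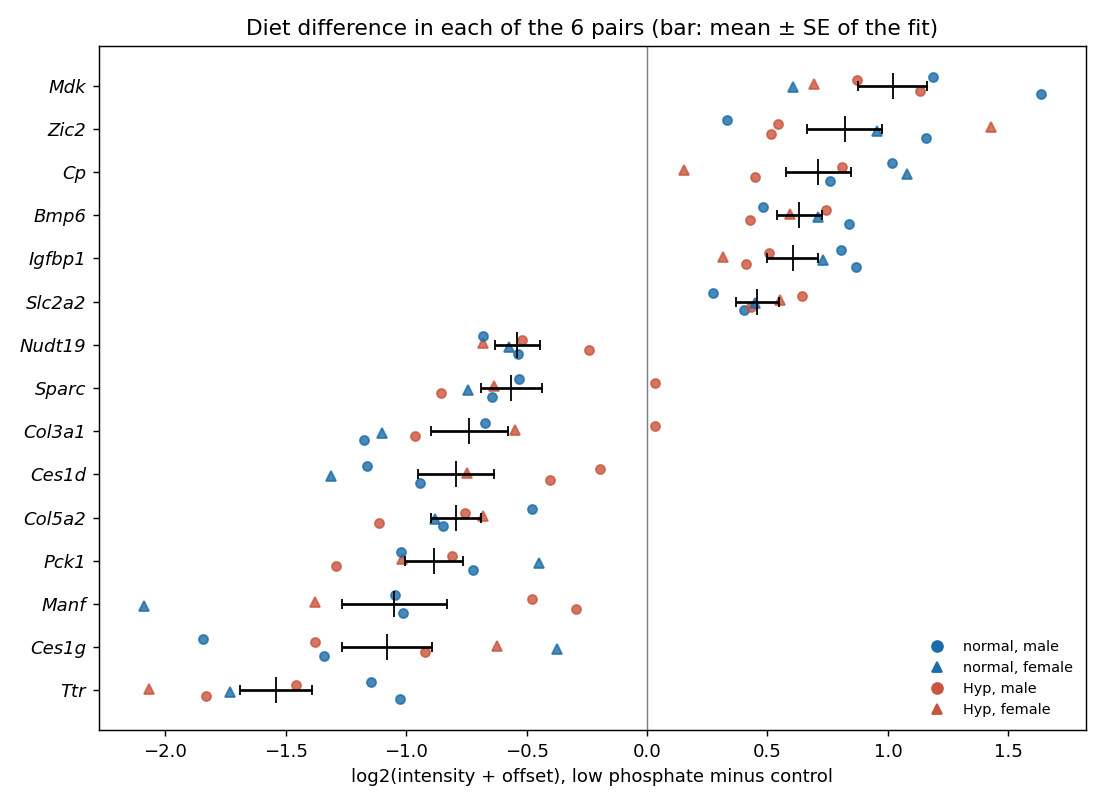
Each coloured point is the log2 difference (low phosphate minus control, log2 of intensity plus the offset) of 1 pair of arrays, by genotype and sex, and the black bars give the mean and SE of the fit over 6 pairs. All 6 points lie on 1 side of 0 for every gene shown except Sparc and Col3a1, where the pair of arrays 09 and 10 lies near 0.

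Gene lists are described by their members at an unadjusted p under 0.05, against 4.4% higher and 4.05% lower over all probe sets, and by their median, against 0.0056 over 6433 genes with 51.2% positive (52.4% of all probe sets). Some genes stand in more than 1 list, so the counts of the lists are not separate. Among them are Psmb8 (proteasome and interferon), Mt1 and Mt2 (glucocorticoid and oxidative stress) and Pdk4 and Angptl4 (PPAR alpha and glucocorticoid). Slc22a6, Cyp4b1, Odc1 and Gsta2 of the male-biased list also stand in other lists. Of 43 extracellular matrix genes, 12 reached that p on the lower side and 1 on the higher, 10 were positive and the median was -0.13. Col3a1 (-0.74 ± 0.16 SE), Col1a1 (-0.62 ± 0.14 SE) and Sparc (-0.56 ± 0.13 SE), which encode the main interstitial collagens and a matricellular protein, had the smallest p after Col5a2, with adjusted p = 0.43 for all 3. Col3a1 had 1713, 1668 and 1065 against 737, 757 and 653 in normal mice and 1715, 1557 and 1028 against 861, 1054 and 1053 in Hyp mice, where the pair of arrays 09 and 10 showed no decrease. Markers of fibroblasts and smooth muscle, a list of 16 that shares its collagens with the matrix list, summed to 12029 to 18634 on control diet and 12429 to 17085 on low phosphate, lower in 5 of 6 pairs. Macrophage and lymphocyte markers (32 on the array) summed to 12011 to 16282 and 11283 to 13779, a sum lower in 6 of 6 pairs. The median of the 22 tested was negative in 5 pairs and 0.04 in arrays 07 and 08. Of these 22, 2 reached the unadjusted p, Ctss and H2-Aa, both lower. Endothelial markers had a median of -0.15 with 2 of 14 positive. The part of these cell types in the matrix values was not tested.

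Endoplasmic reticulum chaperone and stress genes had a median of -0.19, with 7 of 26 at the unadjusted p on the lower side and 2 on the higher, and the list's median was negative in all 6 pairs. Manf, a secreted protein induced by unfolded protein in this compartment, had 845, 517 and 1208 against 399.5, 92.3 and 566 in normal mice and 869.6, 929 and 892 against 703, 334 and 630 in Hyp mice, a difference of -1.05 ± 0.22 SE (adjusted p = 0.43). Xbp1, a transcription factor of that response, differed by -0.38 ± 0.09 SE, and Hspa5, the chaperone BiP, by -0.45 ± 0.13 SE. Manf, Xbp1 and Hspa5 were each lower in 6 of 6 pairs. Of 38 proteasome genes 5 reached the unadjusted p on the lower side (Psmb5, Psmb8, Psmb7, Psmc2 and Psmd6) and 0 on the higher, with a median of -0.09 that ran from -0.29 in arrays 07 and 08 to -0.005 in arrays 01 and 02. Among 13 genes with male-biased levels in mouse kidney, the median was -0.28 and 5 reached the unadjusted p, all lower: the organic anion transporter Slc22a6, Cyp4b1, the polyamine enzyme Odc1, Gsta2 and Gusb.

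Other lists lay higher on low phosphate. The circadian clock list had a median of 0.16 that was positive in all 6 pairs, while 8 of its 13 genes were positive and 5 negative, against 51.2% positive over all genes. Of the 13, 2 genes, Tef and Usp2, reached the unadjusted p, both higher in 6 of 6 pairs (0.37 ± 0.10 SE and 0.34 ± 0.11 SE). Of 21 glucocorticoid-responsive genes 4 reached it, all higher, namely Igfbp1, the metallothioneins Mt1 and Mt2, and Zbtb16, with a list median of 0.16. Zbtb16 differed by 1.12 ± 0.38 SE, and by 0.55 without arrays 05 to 08. In normal mice 19 of the 21 were positive, against 51.6% of all probe sets, with a median of 0.19. In Hyp mice 10 of 21 were, near the 50.5% of all probe sets, with a median of -0.02. The difference between genotypes passed the threshold for 0 of the 21. Among 15 genes of glucose production and transport, Slc2a2, the basolateral glucose transporter of the proximal tubule, differed by 0.46 ± 0.09 SE (higher in 6 of 6 pairs, adjusted p = 0.42), the fructose transporter gene Slc2a5 by 0.48 ± 0.14 SE and Fbp2 by 0.50 ± 0.20 SE (0.32 without arrays 09 and 10), and Pck1 alone reached the unadjusted p on the lower side. Cytoplasmic ribosomal protein genes had a median of 0.09 with 3 of 29 (Rpl22, Rps3 and Rps10) at the unadjusted p, all higher. The liver and pancreas list had a median of 0.43 over 7 genes. Its median was 0.50 in the pair of arrays 07 and 08 and 0.91 in that of arrays 09 and 10, where Alb and Apoa1 were high, and at most 0.42 in the other 4 pairs. The adipocyte list had a median of 0.30 over 14 genes, of which 11 were positive. At the unadjusted p 4 were higher and 2, Pck1 and Lpl, lower. The list's median ran from -0.21 to 0.55 and was positive in 4 pairs, while the summed intensity of its 16 genes on the array was lower in 3 of 6 pairs.

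The retinoid enzyme and carrier list holds Ttr and Mdk, and 7 of its 12 genes reached the unadjusted p, 3 higher (Mdk, Retsat and Dhrs3) and 4 lower (Ttr, Aldh1a7, Aldh1a3 and Dhrs4). Retsat, retinol saturase, differed by 0.62 ± 0.14 SE (adjusted p = 0.43) and Dhrs3, a retinal reductase, by 0.44 ± 0.12 SE. Of 25 drug and steroid metabolism enzymes 5 reached it on the lower side (Ces1g, Ces1d, Cyp4b1, Hsd3b2 and Ugt2b5) and 1 on the higher (Cyp2d9), with a median of -0.12. Cyp4b1, a cytochrome P450 that androgen induces in mouse kidney, had 11113, 1902 and 18406 against 3818, 1374 and 9253 in normal mice and 15522, 7846 and 20507 against 14409, 3424 and 17911 in Hyp mice, lower in 6 of 6 pairs (-0.74 ± 0.20 SE, adjusted p = 0.44), and was lowest in the female pool within each group. Of 29 amino acid, ammonia and polyamine enzymes 4 reached the unadjusted p on the lower side, Glud1 (mitochondrial glutamate dehydrogenase, -0.44 ± 0.10 SE), Gldc (glycine cleavage, -0.48 ± 0.14 SE), Odc1 and Arg2, and 1 on the higher, Hpd. Of 29 interferon-induced genes 4 reached it, all lower (Gbp7, Ifi47, Psmb8 and Gbp3), and 9 were positive, with a median of -0.16. Of 65 respiratory chain genes only Cycs and Ndufb6 reached it, both lower, while 17 were positive and the median was -0.07. Among 24 genes of oxidative stress and metallothioneins 4 were higher at that p (Gsta3, Mt1, Mt2 and Hmox1) and 2 lower (Gsta2 and Gclm). None of the genes in this paragraph but Ttr passed the threshold.

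**Figure D3:**
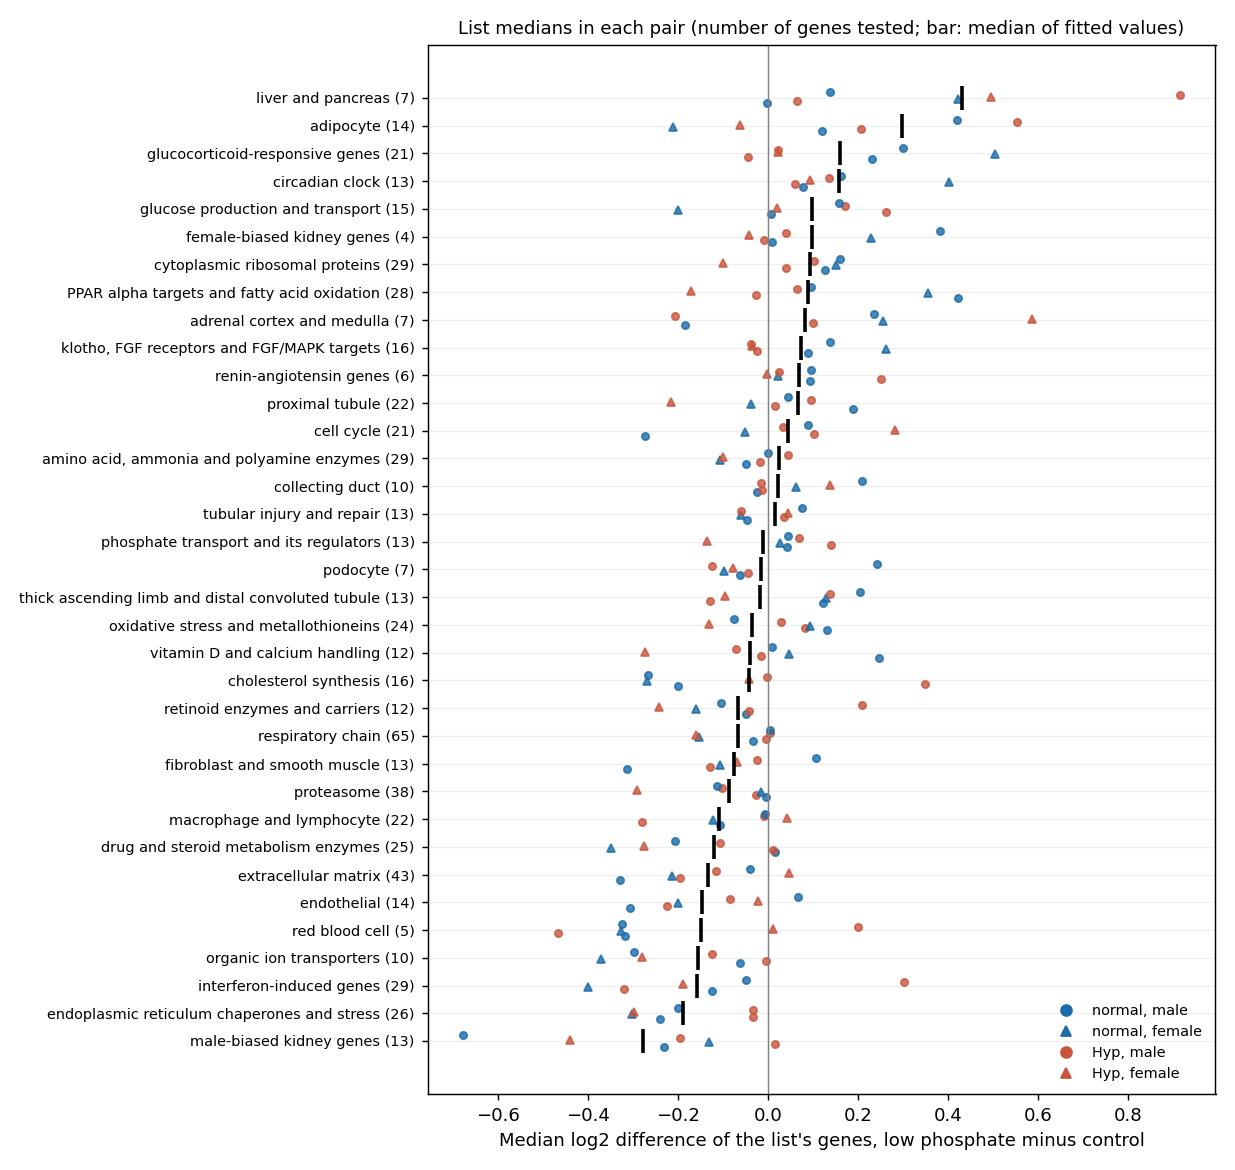
Points give the median log2 difference (low phosphate minus control) of each gene list in each of the 6 pairs, by genotype and sex, the black bar is the median of the fitted differences, and the number of genes tested stands in brackets. Endoplasmic reticulum chaperone genes lie between -0.30 and -0.03 and circadian clock genes between 0.06 and 0.40 over the 6 pairs, and most other lists spread to both sides of 0.

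The genes of phosphate and vitamin D handling were compared because the diet acts on this axis. Over both genotypes 0 of 13 phosphate transport genes and 0 of 12 vitamin D and calcium genes reached even the unadjusted p. Of 16 klotho, FGF receptor and FGF/MAPK target genes, 3 reached it on the higher side and 1, Dusp6, on the lower. The shares over all probe sets were 4.4% and 4.05%. Egr1 and Etv4 were among the 3, and Etv4 ran from 0.22 to 0.49 over the alternatives. Of the 16, 12 were positive, against 51.2% of all genes, with a median of 0.07. Slc34a1, the main sodium-phosphate cotransporter gene of the proximal tubule, had 12266, 11594 and 15864 on control and 14129.7, 14033 and 16835 on low phosphate diet in normal mice, and 10893, 11792 and 9333 and 12290, 8769.5 and 12049 in Hyp mice. It was higher in 5 of 6 pairs, lower in the pair of arrays 07 and 08, and differed by 0.11 ± 0.12 SE (adjusted p = 0.8). Slc20a1, a sodium-phosphate cotransporter of the other family, differed by 0.03 ± 0.13 SE and Pth1r, the parathyroid hormone receptor, by -0.03 ± 0.16 SE. Kl, which encodes klotho, had 5499.8, 5508 and 7069 and 6814, 6836 and 7824 in normal mice and 3919, 4648 and 4795 and 4477, 4620.2 and 5958 in Hyp mice, a difference of 0.21 ± 0.09 SE (adjusted p = 0.58). Dusp6, a phosphatase of ERK that FGF signalling induces, was lower in 6 of 6 pairs, with 647, 549 and 750.2 against 401, 507 and 552 in normal mice and 1345, 1129.8 and 898 against 865, 638 and 742 in Hyp mice (-0.47 ± 0.11 SE, adjusted p = 0.43). Egr1, an immediate early gene that the same pathway induces, leaned the other way, at 0.42 ± 0.13 SE and higher in 5 of 6 pairs (adjusted p = 0.52), and Fgfr1 differed by 0.06 ± 0.13 SE. Phex had intensities of 12.4 to 106 over the 12 arrays, lay under the intensity filter and was not tested.

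Each genotype was then fitted with a diet term of its own, to ask whether Hyp mice respond as normal mice do. S100g, which encodes calbindin-D9k, a cytosolic calcium carrier of the distal tubule that active vitamin D induces, was the gene called here. It fell in Hyp mice, from 2467, 3672 and 2194 on control diet to 636, 672 and 591 on low phosphate. In normal mice it was higher on low phosphate in all 3 pairs, at 3717, 3855 and 5336 against 2286, 2508 and 3248. The diet groups did not overlap in either genotype, and the share of all probe sets without overlap was not counted. Over all probe sets, 16.3% were higher and 14.9% lower on low phosphate in all 3 normal pairs, and 13.1% were higher and 12.4% lower in all 3 Hyp pairs. For S100g the difference was -2.04 ± 0.15 SE in Hyp mice (limma, adjusted p = 0.014) and 0.67 ± 0.15 SE in normal mice (adjusted p = 0.53), and the test of the difference between genotypes gave -2.71 ± 0.21 SE (adjusted p = 0.021). A second probe set for the gene gave -1.52 in Hyp mice and -2.07 for the difference between genotypes. Neither value of the second probe set passed the threshold here, and both passed with trended and robust variances. For the called probe set the Hyp value ran from -2.14 to -1.86 over the alternatives and the difference between genotypes from -2.81 to -2.53. Both calls ended when any 1 pair was left out (adjusted p = 0.067 to 0.11 in Hyp mice and 0.056 to 0.26 for the difference) and without arrays 05 to 08 (adjusted p = 0.16 and 0.18), and that of the difference ended with an offset of 1 (adjusted p = 0.061). Without arrays 07 to 10 the values were -1.89 (adjusted p = 0.97) and -2.57 (adjusted p = 0.81), with 1 Hyp pair left.

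**Figure D4:**
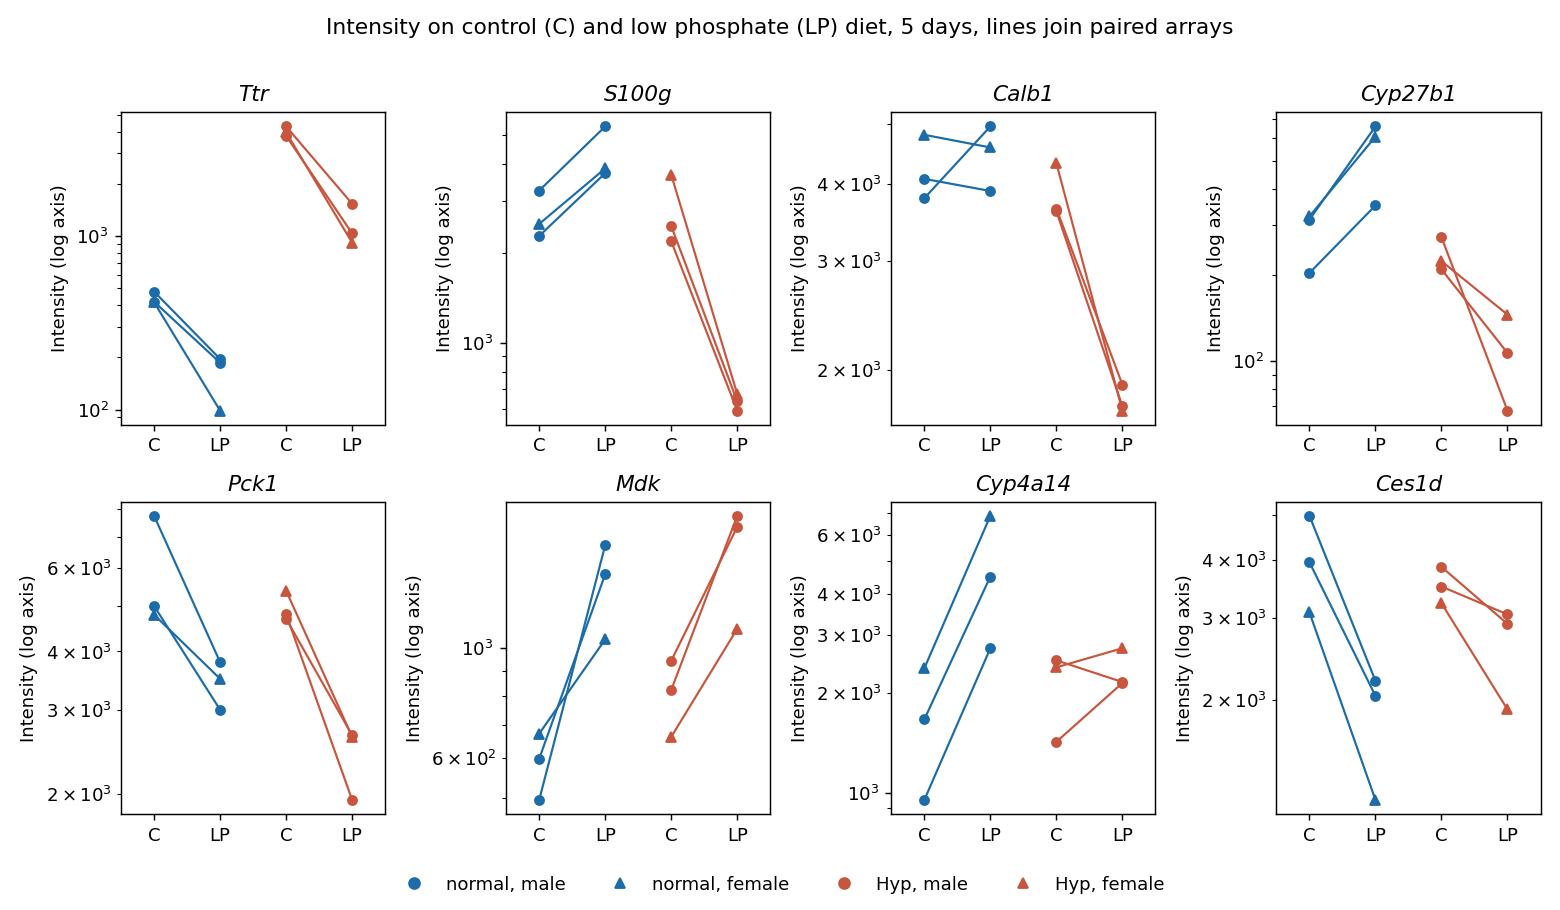
Intensities (log axis) of 8 genes on control (C) and low phosphate (LP) diet, where each line joins the 2 arrays of a pair, coloured by genotype and marked by sex. Ttr is lower on low phosphate in all 6 pairs, S100g and Cyp27b1 are higher in the 3 normal pairs and lower in the 3 Hyp pairs, and Cyp4a14 is higher in the 3 normal pairs, with mixed directions in Hyp.

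The start region of S100g is shown because its diet response differed between the genotypes, and that of Pck1 because its diet groups did not overlap. Both run from 250 bases before to 50 bases after the RefSeq start (GRCm38.p6), S100g at chrX:162964550-162964849 on the minus strand and Pck1 at chr2:173152823-173153122 on the plus strand.
S100g: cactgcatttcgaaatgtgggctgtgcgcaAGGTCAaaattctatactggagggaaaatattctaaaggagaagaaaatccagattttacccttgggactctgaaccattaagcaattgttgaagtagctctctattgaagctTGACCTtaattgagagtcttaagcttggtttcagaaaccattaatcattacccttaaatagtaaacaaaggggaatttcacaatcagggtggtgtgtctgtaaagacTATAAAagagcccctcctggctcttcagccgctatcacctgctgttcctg
Pck1: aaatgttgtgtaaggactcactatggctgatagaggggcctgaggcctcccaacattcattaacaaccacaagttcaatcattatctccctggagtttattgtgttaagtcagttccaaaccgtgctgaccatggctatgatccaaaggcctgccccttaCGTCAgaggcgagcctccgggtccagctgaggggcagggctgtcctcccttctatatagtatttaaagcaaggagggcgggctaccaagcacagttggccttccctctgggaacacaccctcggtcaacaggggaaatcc
Capitals mark matches, on either strand, to the letters TATAAA, to the nuclear receptor element letters AGGTCA and to TGACG, the core letters of a cyclic AMP response element. The S100g window holds TATAAA once, beginning at the annotated start itself, and AGGTCA on each strand once (TGACCT is its reverse complement), and the Pck1 window holds TGACG once, on the minus strand as CGTCA. Of 32851 mouse promoter windows of this length, 13.6% hold TATAAA, 16.3% hold AGGTCA and 20.8% hold TGACG, so each match is common.

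In Hyp mice the single probe set called was that of S100g, 0.0115% of those tested, 0 higher and 1 lower. At an unadjusted p under 0.05 there were 438 (5.04%), 268 higher (3.08%) and 170 lower (1.96%). Calb1, the larger renal calbindin of the distal tubule, had 3646, 4316 and 3609.6 on control and 1895, 1720.2 and 1749 on low phosphate diet in Hyp mice, groups that did not overlap, and 4071, 4796 and 3789 and 3892, 4575 and 4947 in normal mice, groups that did. It differed by -1.09 ± 0.15 SE in Hyp mice (adjusted p = 0.24) and by 0.08 ± 0.15 SE in normal mice. Cyp27b1 had 209, 224 and 271 against 107, 146 and 67.4 in Hyp mice, a difference of -0.94 ± 0.21 SE (adjusted p = 0.63), with no overlap. The share of all probe sets without overlap in Hyp mice was not counted, and 12.4% were lower in all 3 Hyp pairs. Cyp24a1 had 1765, 823 and 1944 and 2682, 1148 and 2326 in Hyp mice, higher on low phosphate in 3 of 3 pairs, and differed by 0.44 ± 0.30 SE (adjusted p = 0.92). Vdr, the vitamin D receptor gene, differed by 0.16 ± 0.19 SE. Of the 12 vitamin D and calcium genes, S100g, Calb1 and Cyp27b1 reached the unadjusted p in Hyp mice, all lower, and the list's median was -0.10. Without arrays 07 to 10, which leaves the pair of arrays 03 and 04, the Hyp difference was -0.93 for Calb1, -0.77 for Cyp27b1 and 0.59 for Cyp24a1.

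Among the other genes with the smallest p in Hyp mice were Rarres2, which encodes the adipokine chemerin, at 726, 499.9 and 644 against 1477, 939 and 1136 (0.88 ± 0.13 SE, adjusted p = 0.25), and the dim Ghrh and Otog (1.22 ± 0.20 SE and 1.34 ± 0.24 SE). All 3 were higher on low phosphate in 3 of 3 Hyp pairs, and without arrays 07 to 10 the values were 0.99 for Rarres2, 1.38 for Ghrh and 0.64 for Otog, whose difference was thus less than in the full fit by over 1.5 times. With an offset of 1 the difference of Ghrh was 1.93. In normal mice they differed by 0.04 ± 0.13, 0.04 ± 0.20 and 0.13 ± 0.24 SE. Pck1 differed by -1.04 ± 0.16 SE in Hyp mice (adjusted p = 0.31) and by -1.29 without arrays 07 to 10. Of 28 genes of PPAR alpha targets and fatty acid oxidation, 0 reached the unadjusted p in Hyp mice. Over all probe sets 3.08% reached it on the higher side and 1.96% on the lower, so a count of 0 is near that share. Of the 28, 11 were positive, against 50.5% of all probe sets.

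In normal mice 0 probe sets were called by limma. The smallest adjusted p was 0.099, and 660 probe sets (7.59%) had an unadjusted p under 0.05, 334 higher (3.84%) and 326 lower (3.75%). That smallest adjusted p belonged to both Slc27a1, a fatty acid transport protein gene, and Cyp4a14, a fatty acid omega-hydroxylase induced through PPAR alpha. Slc27a1 had 93, 55.1 and 209 on control and 259.6, 216 and 607 on low phosphate diet (1.34 ± 0.14 SE). Cyp4a14 had 1664, 2376 and 950.3 and 4501, 6872 and 2732 (1.47 ± 0.17 SE), and in Hyp mice 2512, 2392 and 1424 and 2160.3, 2732 and 2145 (0.18 ± 0.17 SE). Every normal low phosphate array was above every normal control array for both genes. The share of all probe sets that did so was not counted, and 16.3% were higher in all 3 normal pairs. Probes of Cyp4a14 and Cyp4a10 may cross-hybridise, since the genes are close relatives.

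Of the 28 PPAR alpha and fatty acid oxidation genes, 7 reached the unadjusted p in normal mice, all higher, against 3.84% of all probe sets, and 24 were positive, against 51.6% of all probe sets, with a median of 0.24. The 7 were Cyp4a14, Acot1 (acyl-CoA thioesterase, 0.96 ± 0.17 SE), Cyp4a10 (0.78 ± 0.18 SE), Pdk4 (pyruvate dehydrogenase kinase, 1.03 ± 0.24 SE), Angptl4 (an inhibitor of lipoprotein lipase, 0.95 ± 0.23 SE), Slc25a20 (the carnitine-acylcarnitine carrier, 0.49 ± 0.16 SE) and Vnn1 (pantetheinase, 0.56 ± 0.22 SE). The difference of Slc25a20 was 0.29 without arrays 01 and 02, and that of Vnn1 was 0.36 without arrays 05 and 06 and 0.91 without arrays 19 and 20. Acot1 had 909.7, 846 and 1230.5 against 2108, 1897 and 1833, without overlap, and in Hyp mice 886, 766 and 1102 against 935, 1076 and 1151. Pdk4 had 504, 1646 and 1061 against 1633, 3340.4 and 1465 in normal mice, with overlap, and 935, 1319.6 and 1587 against 549.8, 1091 and 1676 in Hyp mice. The test of the difference between genotypes did not pass for any of the 7 (Cyp4a14 -1.29 ± 0.24 SE, adjusted p = 0.69; Pdk4 -1.33 ± 0.34 SE, adjusted p = 0.93).

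Cholesterol synthesis genes lay lower in normal mice, with 6 of 16 at the unadjusted p, all lower, against 3.75% of all probe sets, 2 positive, against 51.6%, and a median of -0.14. Mvd, mevalonate diphosphate decarboxylase, had 414, 265 and 598 against 308, 118 and 337 (-0.70 ± 0.16 SE), and Idi1, the isopentenyl diphosphate isomerase, 971, 845 and 2054 against 629.9, 519 and 842 (-0.84 ± 0.27 SE). In Hyp mice 2 of the 16 reached it, Fdft1 and Msmo1, both higher, against 3.08% of all probe sets, and the median was 0.03. Sgk1, a kinase that aldosterone and glucocorticoids induce, was higher in 3 of 3 normal pairs, at 2625, 5661 and 3039 against 1695, 3010.4 and 1365 (0.89 ± 0.16 SE), and differed by -0.05 ± 0.16 SE in Hyp mice. Cirbp, a cold-inducible RNA-binding protein gene, had 607, 672 and 814 against 1301, 1409 and 1493 (0.98 ± 0.14 SE, adjusted p = 0.2), and Retsat, retinol saturase, 936, 1064 and 1317 against 2276, 1988 and 1940 (0.89 ± 0.16 SE). On the lower side were Ces1d, a carboxylesterase gene with 3951, 3083 and 4972 against 2039.6, 1219 and 2198 (-1.14 ± 0.16 SE), and Emp2, an epithelial membrane protein gene with 475, 501 and 297 against 251, 183 and 81.4 (-1.20 ± 0.17 SE), both at an adjusted p of 0.2. Of the 43 matrix genes, 11 reached the unadjusted p in normal mice, all lower, against 3.75% of all probe sets, and in Hyp mice 3 were lower and 1 higher, against 1.96% and 3.08%.

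Cyp27b1 was higher on low phosphate in each normal pair, at 659, 607 and 349.5 against 312, 320.2 and 203, a difference of 0.84 ± 0.21 SE (adjusted p = 0.55), and thus opposite in sign to Hyp mice. The test of that difference between genotypes gave -1.79 ± 0.29 SE with an adjusted p of 0.69, and for Calb1 it gave -1.17 ± 0.22 SE with the same adjusted p. S100g was the only probe set of 8695 (0.0115%) for which the responses of the genotypes differed at the threshold, and 360 (4.14%) had an unadjusted p under 0.05, 191 with a higher (2.2%) and 169 with a lower (1.94%) response in Hyp mice. Over all probe sets the mean differences of the genotypes had a Pearson correlation of 0.15 and a Spearman correlation of 0.17, which is across probe sets that are not independent, and is given as a description.

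**Figure D5:**
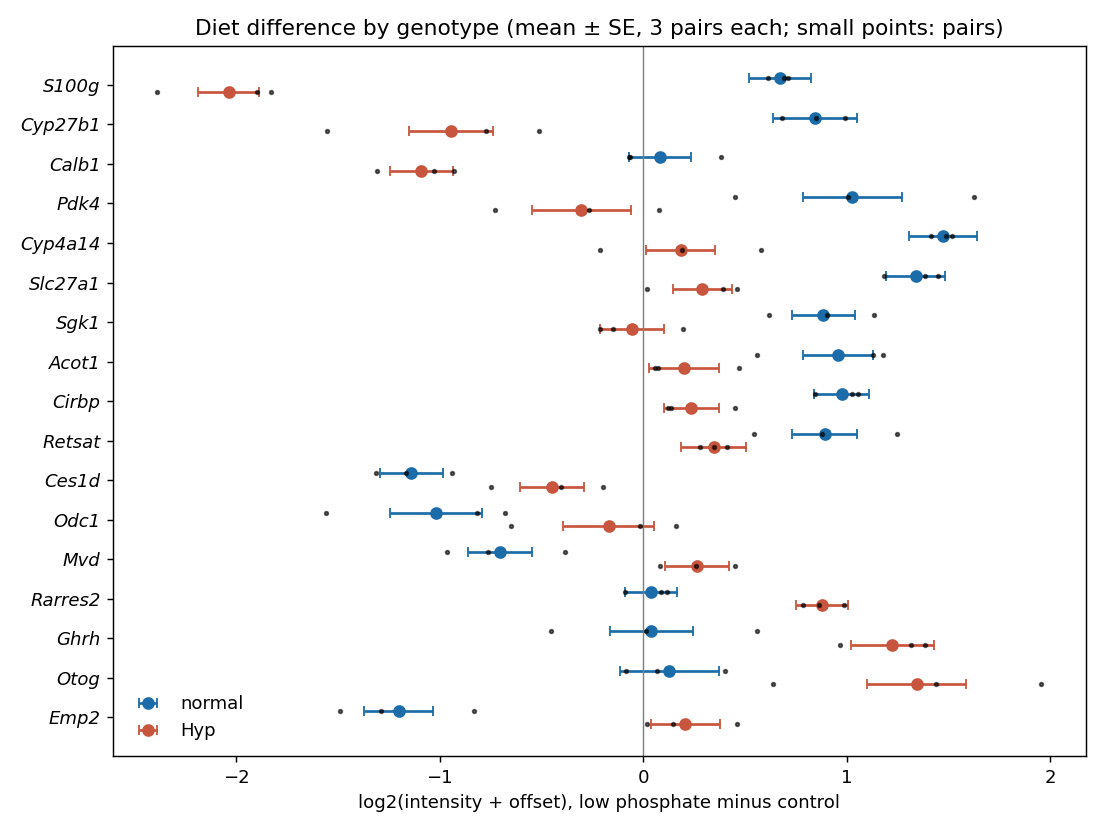
Mean log2 difference (low phosphate minus control, log2 of intensity plus the offset) with its SE for normal and Hyp mice, 3 pairs each, and the single pairs as small points. S100g and Cyp27b1 lie on opposite sides of 0 in the 2 genotypes, Cyp4a14 lies at 1.47 in normal and 0.18 in Hyp mice, and Rarres2 at 0.04 and 0.88.

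The response of the 2 female pairs was set against that of the 4 male pairs. No probe set passed in limma (smallest adjusted p = 0.092), and 825 (9.49%) had an unadjusted p under 0.05, 454 with a higher (5.22%) and 371 with a lower (4.27%) response in females. Both female pairs lie in arrays 05 to 08, so sex and the array quality described above cannot be told apart. Ttr differed between the sexes by -0.53 ± 0.27 SE and S100g by -0.31 ± 1.07 SE, and Manf, lower in 6 of 6 pairs, by -1.03 ± 0.31 SE (adjusted p = 0.44).

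The 8 arrays at 3 days, 2 per group, were used to ask whether the response at 5 days differed from the earlier one. They share no array with the 5 day pairs. The difference between the durations passed for 0 probe sets (limma, smallest adjusted p = 0.91, with 451 or 5.19% at an unadjusted p under 0.05, 2.58% higher and 2.61% lower at 5 days). Ttr differed by -1.24 at 3 days over 4 pairs, lower in 4 of 4, with intensities of 492.7 and 368 against 143 and 183 in normal and 3164 and 1994 against 1029.7 and 1017 in Hyp mice. S100g at 3 days had 4677 and 5051 against 1124 and 1224 in Hyp mice and 4292 and 4765 against 5261 and 4917 in normal mice. Calb1 had 4658 and 4728 against 1800.4 and 1912 and Cyp27b1 159 and 554 against 64.4 and 58.9 in the 3 day Hyp arrays, so each was lower on low phosphate in both Hyp pairs. Mdk differed by 0.57, Pck1 by -0.74 and Col5a2 by -0.54 at 3 days, the same signs as at 5 days, whereas Bmp6 (0.08), Igfbp1 (-0.10) and Zic2 (0.09) lay near 0. For Igfbp1 the test of the difference between durations gave 0.71 ± 0.18 SE (adjusted p = 0.92). In the 3 day Hyp arrays Cyp24a1 had 1783 and 2366 on control and 7158 and 5668 on low phosphate diet. Over both genotypes the difference between durations was -0.26 ± 0.46 SE (limma, adjusted p = 0.96). That test takes the genotypes together, so it cannot address a difference between durations in Hyp mice alone, which was not tested. Cyp4a14 had 1179 and 3114 against 2638 and 4647 in normal mice and 1246 and 3792 against 3826 and 4086 in Hyp mice at 3 days, higher on low phosphate in each of the 4 pairs. Over 8695 probe sets the mean differences at 5 and at 3 days had a Pearson correlation of 0.22 and a Spearman correlation of 0.19, again as a description.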

How the data were processed

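The authors deposited 1 linear signal intensity for each probe set on each array, already scaled to a common trimmed mean (500.254 to 500.309 after trimming 2% at each end of the 5 day arrays), per the values themselves. The array software was not given in the sources used here. The table held 12488 probe sets, of which 66 controls were left out. Genes were named by the platform annotation: 10833 probe sets have 1 gene symbol, 396 several and 1193 none, and 10817 matched RefSeq by gene number. No further scaling was applied. Before the log2 step, 38 (the 20th percentile of the table) was added, and 8695 probe sets with a mean at or above the 30th percentile were tested. The brightest probe set stands for a gene that has several.

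Limma 3.58.1 (R 4.3.3) was fitted to the 12 arrays with the pair as a block and 1 diet term, or 1 for each genotype or sex, and to all 20 arrays with 1 diet term for each duration. P-values are two-sided and adjusted by Benjamini-Hochberg over 8695 probe sets at a threshold of 0.05. Paired arrays deviated from their group means together, with correlations of 0.20 to 0.65 in the 6 pairs. The pairing comes from title number, genotype, sex and duration in the labels. The fit over both genotypes was run on simulated data with known changes and independent normal noise. The share of changes recovered is not given here, so no power is claimed.

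The arrays, gene lists and genes were chosen with earlier results of these data known. The rule for named genes took the called genes, or the smallest p in each direction, a fixed set of phosphate and vitamin D genes and the 3 members of smallest p in each list. Members named beside a small count (Fbp2, Dhrs3, Mvd, Idi1, Pdk4, Angptl4, Slc25a20 and Vnn1 among them), the 13 probe sets whose groups separate and Alb were chosen after their values were seen. Alternatives were another offset, quantile normalization, other intensity filters, trended and robust variances, no block, array weights, all 20 arrays, and each pair or array set left out.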

Additional observations from a re-analysis of the deposited data

Results flagged for a closer look

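Of 102 checks for a single distant value among 6, 9 found one. Chance alone gives about 1 in 20, but the checks of Alb, Ahsg and Apoa1 include values seen before they were chosen. The count therefore cannot be set against that share, and the values below are flags only. The pair of arrays 07 and 08, Hyp females, stood below the rest for the phosphate transporter gene Slc34a1 (-0.43 against 0.09 to 0.37 on the log2 scale) and for the proteasome gene Psmb7 (-0.58 against -0.20 to -0.12). The pair of arrays 09 and 10, Hyp males, was the only one not lower for Sparc (0.032 against -0.86 to -0.53). The pair of arrays 03 and 04 gave -0.24 for Nudt19 (others -0.68 to -0.52), and the pair of arrays 01 and 02 gave -0.14 for the vasopressin receptor gene Avpr2 (others -0.35 to -0.28).

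Array 10, a Hyp low phosphate pool, stood above the other low phosphate arrays for Alb (13097 against 101 to 1226), Ahsg (943 against 16.3 to 95.1) and Apoa1 (1706 against 28.1 to 549). Array 05, a normal control pool, stood above the other control arrays for Apoa1 (107 against 29.4 to 40.0).

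The diet response of S100g differed between genotypes by the test of the difference itself (-2.71 on the log2 scale, Hyp minus normal, limma adjusted p = 0.021), with 3 of 3 normal pairs higher and 3 of 3 Hyp pairs lower on low phosphate.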

How the results depend on the processing

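The counts of called probe sets depended on the processing, while the fitted differences of the called genes moved little. Over both genotypes (1 called) the count was 0 with quantile normalization, an offset of 1, no filter on dim probe sets, male pairs only, without arrays 05 to 08 or without arrays 07 to 10, 4 with a filter at the median, and 7 with trended and robust variances or all 20 arrays in the fit. In normal mice (0 called) it was 2 with the median filter and 5 with trended and robust variances. In Hyp mice (1 called) it was 2 with the median filter, array weights or no replicate block, 7 with trended and robust variances, and 0 without arrays 05 to 08 or 07 to 10. For the difference between genotypes (1 called) it was 0 with an offset of 1 or without arrays 05 to 08 or 07 to 10, and 2 with trended and robust variances. For the difference between sexes (0 called) it was 2 with the median filter, 3 with trended and robust variances and 1 with no replicate block, and for the difference between durations 0 throughout. Without the replicate block, the pairing gave way to genotype and array set, and no other call changed. Leaving out each pair in turn gave 0 to 0 called probe sets in all 6 comparisons. These fits keep fewer residual degrees of freedom.

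Of the values for single genes under an alternative, 1869 kept their direction and side of the threshold, 29 lost and 30 gained a call, and 11 changed sign, all of genes that differed by less than their error. Pth1r (-0.03) was 0.096 with array weights, 0.14 without arrays 05 to 08 or with male pairs only and 0.045 without arrays 07 to 10, with -0.18 to 0.080 as each pair was left out. Slc20a1 (0.03) was -0.078 without arrays 05 to 08 or with male pairs only and -0.042 to 0.11 as each pair was left out, and Fgfr1 (0.06) was -0.023 to 0.17. The cause of these changes was not tested. The fit without arrays 07 to 10 was chosen after seeing the data. With 3 pairs per genotype, differences near the spread between pools could not be told from 0, and dim genes such as Phex were not measured above the filter.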
